A study of Mus musculus with 7 samples.

Results

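The sirtuins are the class of deacylases that use NAD+ as a cosubstrate, and their 7 mouse genes, Sirt1 to Sirt7, were followed here through 7 RNA-seq libraries of muscle stem cells (MuSCs). The genes were picked by name, with earlier results of the same contrast in view, and all 7 were found among the 13280 genes of the count table. Every mouse carried Gli1-CreERT2 and R26-tdT, with Gli1-CreERT2 heterozygous, and received tamoxifen (TAM) at 8 weeks of age. The labels give the strain as C57BL/6, whereas the methods describe a mix of C57BL6/129. In these animals a Cre recombinase that needs TAM is made from the Gli1 locus and switches on the red protein tdT for good, so that tdT records Gli1 expression around the injections and not at the time of sorting. At 3 days after TAM, CD45-CD31-Sca1-VCAM1+ cells of uninjured hindlimb muscle were sorted into tdT+ cells, called Gli1+ MuSCs (4 libraries), and tdT- cells, called Gli1- MuSCs (3 libraries), and 1 ng of total RNA went into each library. The methods describe the replicates as biological and the experiments as independent, but do not say if each library stands for 1 mouse or for pooled mice.

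Sirtuins remove acetyl or longer acyl groups from lysines and consume a molecule of NAD+ each time, which ties them to the metabolic state of the cell. Sirt1, Sirt6 and Sirt7 work mainly in the nucleus on histones and transcription factors, Sirt2 mainly in the cytosol, and Sirt3, Sirt4 and Sirt5 in mitochondria. In muscle stem cells the family is best known through Sirt1, whose loss of activity as NAD+ falls accompanies the passage from quiescence to activation.

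All 7 genes had a RefSeq start with 250 upstream bases on GRCm38.p6 (9 windows, since Sirt3 and Sirt6 have alternative starts). The Sirt1 stretch is shown because it held a repeated E-box, the letters CACGTG (a palindrome, the same on both strands), which was present in 6.02% of 32851 mouse promoter windows. It covers chr10:63339051-63339285 on the minus strand, ends where the exon at this RefSeq start begins, lies in an intron of another annotated Sirt1 transcript that starts further upstream, and has the E-boxes in capitals.
Sirt1: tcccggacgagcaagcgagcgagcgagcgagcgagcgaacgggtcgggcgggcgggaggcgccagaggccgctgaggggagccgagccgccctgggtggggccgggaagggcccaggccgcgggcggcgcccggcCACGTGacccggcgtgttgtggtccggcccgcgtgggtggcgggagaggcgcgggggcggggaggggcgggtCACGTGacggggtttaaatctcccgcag
The Sirt6 and Sirt7 stretches, 30 bases each, are shown for the Nrf1 letters GCGCATGCG (searched on both strands, found in 1.45% of all windows), which stand here in capitals. In Sirt6 the matches on the 2 strands overlap, so that the capitals run on by a base. They lie at chr10:81627690-81627719 and chr11:120625019-120625048, both on the minus strand and both inside an annotated exon of a transcript of the gene that starts further upstream.
Sirt6: catcaggaggGCGCATGCGCtctggaaaga
Sirt7: ggccgggcccGCGCATGCGtctctgtagct
The Ets letters CCGGAAG occurred in 3 of the 9 windows, upstream of Sirt3, Sirt6 and Sirt7, against 6.91% of all windows. The Gli letters GACCACCCA occurred in none, against 0.225%. The sirtuin windows held 12 to 39 CpG (a C followed by a G) each, against a median of 6 over all windows. The E-box, Ets and Nrf1 letters contain CpG, so the shares over all windows are not a like background. All motifs were searched on both strands and chosen after the sequences were seen, and a match describes letters only.

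Assigned reads totalled 12808512 to 19662721 in the Gli1- and 10595181 to 13781283 in the Gli1+ libraries, which detected 5471 to 10829 genes each. Gli1- replicate 3 detected 6834 genes, fewer than any Gli1+ library, and 39.5% of the genes tested had no read there. Gli1- replicate 2 (5471 genes) and Gli1+ replicate 3 (8579) were the poorest of their groups, and 51.5% and 24.9% of the genes tested had no read there. These libraries also had the lowest summed level of 8 MuSC markers (4557 and 4149 CPM, that is, reads scaled to library size, against 5197 to 6471 in the others) and the highest of 4 endothelial markers (745 and 850 CPM against 118 to 298) and of 4 pericyte and smooth muscle markers (1012 and 2108 CPM against 197 to 708). All 8 MuSC markers were read in every library. Summed levels of 6 FAP and fibroblast markers ran from 1246 to 2396 CPM in the Gli1- and from 1250 to 6641 CPM in the Gli1+ libraries, the highest in Gli1+ replicate 4, and those of immune, mature myofibre and Schwann markers stayed at or below 259 CPM in every library. Reads of Gli1 itself numbered 214, 0 and 0 over the Gli1- replicates and 543, 421, 80 and 182 over the Gli1+ replicates, so the library labelled Gli1- replicate 1 held Gli1 reads at 11.6 CPM, above the 7.28 CPM of Gli1+ replicate 3.

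The family divided into genes read everywhere and genes missing from whole libraries. Sirt1 and Sirt2 were read in all 7 libraries, as were 33.6% of the 11134 genes tested. Sirt3, Sirt4, Sirt5, Sirt6 and Sirt7 gave 35 values over the libraries, of which 16 were 0, none lay between 1 and 4 reads, and the other 19 ran from 19 to 411 reads with a median of 192. All 5 were without a read in both Gli1- replicate 2 and Gli1+ replicate 3, an absence shared by 19.7% of the genes tested. A value of 0 is compatible with up to 3 reads by counting error alone, which in a library of this size is well under 1 CPM.

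Gli1- replicates 1, 2 and 3 had reads of 6, 2 and 4 sirtuins. Gli1+ replicates 1 to 4 had reads of 7, 7, 2 and 5. Only Gli1+ replicates 1 and 2 held all 7. The groups overlapped, and the libraries with 2 sirtuins were those with the fewest genes of their group. The part that the number of genes read and the endothelial and pericyte signal had in these absences was not tested.

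**Figure D1:**
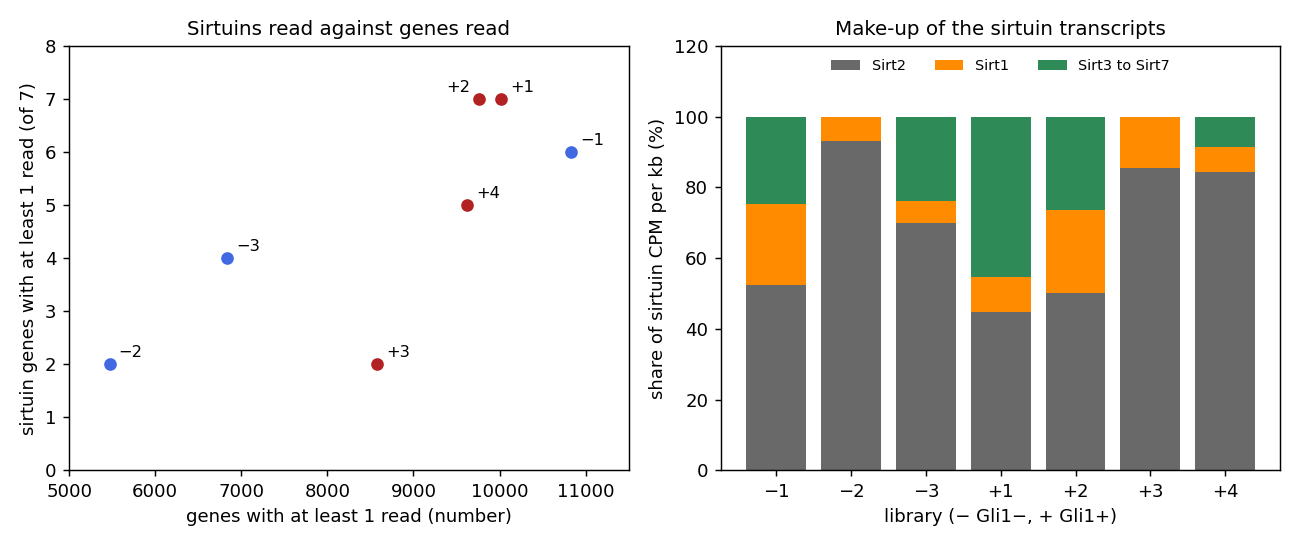
Left, sirtuin genes with at least 1 read against all genes with at least 1 read in each library (blue Gli1-, red Gli1+, with the replicate number). Right, the share of the summed sirtuin level (CPM per kb of exon) held by Sirt2, Sirt1 and the other genes. Gli1- replicate 2 and Gli1+ replicate 3 had reads of 2 sirtuins only.

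Levels were compared between genes as CPM per kb of exon. Sirt2 stood highest with 30.7 ± 8.51 (SD, n = 7 libraries), followed by Sirt1 with 7.14 ± 6.50 CPM per kb. Their ranges did not overlap, and Sirt2 exceeded Sirt1 in 7 of 7 libraries. Below them came Sirt4 (3.20 ± 4.07), Sirt7 (2.58 ± 2.25), Sirt6 (1.89 ± 4.00), Sirt5 (1.21 ± 1.16) and Sirt3 (1.20 ± 1.42 CPM per kb). No neighbouring pair from Sirt1 downward was separated beyond its spread, and dividing by the longest transcript instead exchanged Sirt5 and Sirt6.

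**Figure D2:**
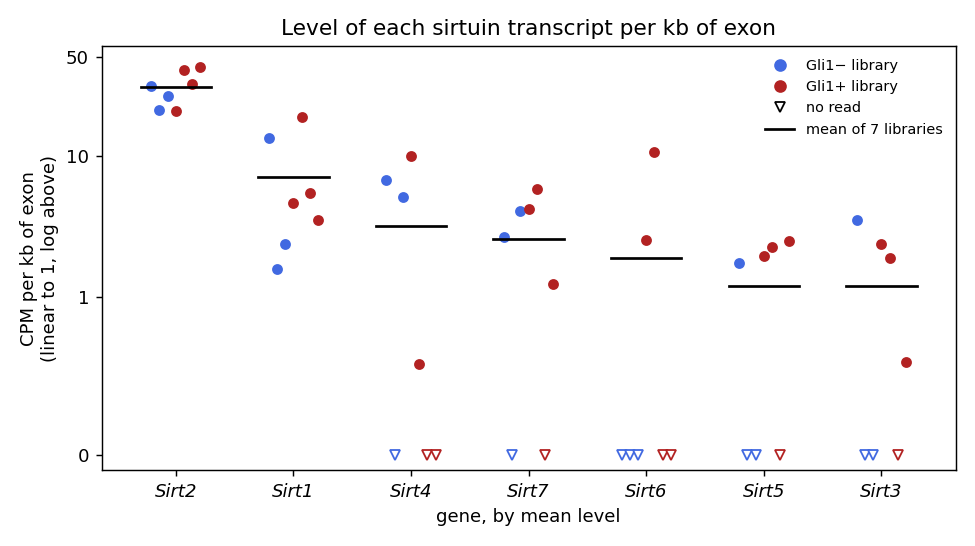
CPM per kb of exon of each sirtuin in each library (vertical axis linear up to 1 and logarithmic above; blue Gli1-, red Gli1+; open triangles, no read; line, mean of 7 libraries). Sirt2 lay above every value of the other sirtuins, and from Sirt1 downward the ranges overlapped.

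Sirt2 supplied 52.5%, 93.0% and 69.9% of the summed sirtuin level per kb in Gli1- replicates 1, 2 and 3. In Gli1+ replicates 1 to 4 its share was 44.8%, 50.2%, 85.4% and 84.3%. The share was therefore lowest in libraries where most members were read, and the groups overlapped.

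Among the nuclear members, Sirt1 deacetylates histones, p53 and FoxO factors. It lies on GRCm38 at chr10:63319005-63381704, minus strand (ENSMUSG00000020063). Gli1- replicates 1, 2 and 3 counted 1331, 124 and 199 reads of it, or 72.0, 8.52 and 12.6 CPM. Gli1+ replicates 1 to 4 counted 266, 1380, 322 and 187, or 24.6, 100.5, 29.3 and 18.8 CPM. A single library of each group was high, Gli1- replicate 1 and Gli1+ replicate 2, and the ranges overlapped. The means were 31.1 ± 35.5 CPM (SD, n = 3) in Gli1- and 43.3 ± 38.4 CPM (SD, n = 4) in Gli1+ MuSCs. The fitted log2 fold change (Gli1+ over Gli1-) was 0.48 with an approximate standard error (SE) of 1.29. Each SE was derived from the test, as the size of the fold change over the square root of its F statistic. The fold change was 2.05 without Gli1- replicate 1 and -0.36 without Gli1+ replicate 2. Counting error was at most 8.98% of any value of Sirt1, far below the 91.0% coefficient of variation over the 7 libraries.

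Sirt6 acts on chromatin in DNA repair and represses glycolytic target genes of Hif1a. It lies at chr10:81621785-81627797, minus strand (ENSMUSG00000034748), and shares no exonic base with another gene. None of the 3 Gli1- libraries had a read of it, whereas Gli1+ replicates 1 and 2 had 76 and 410 reads (7.04 and 29.9 CPM) and Gli1+ replicates 3 and 4 had none. The groups thus shared the value 0, with 2 of 4 Gli1+ libraries above it. With each Gli1- library put at 3 reads as its upper limit, the Gli1+ mean of 9.22 ± 14.1 CPM (SD, n = 4) was at least 49.5-fold higher, a bound that takes in counting error only and rests on those 2 libraries. In the 2 Gli1+ libraries without Sirt6 the same limit of 3 reads applies. The fitted log2 fold change of 9.96 and its SE of 4.67 depend on the prior count, and neither is a bound. Absence from the whole Gli1- group held for 3.83% of the genes tested, and absence from the whole Gli1+ group for 0.476%. Of the genes tested, 57 (0.512%) had the same pattern of presence as Sirt6. Sirt6 also belongs to a published panel of proliferation genes drawn from these same libraries, which is no independent evidence of its direction.

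Sirt7, a nucleolar member linked to ribosomal RNA transcription, lies at chr11:120618372-120625240, minus strand (ENSMUSG00000025138). It had 255, 0 and 331 reads (13.8, 0 and 21.0 CPM) in the Gli1- libraries and 234, 411, 0 and 64 reads (21.7, 29.9, 0 and 6.45 CPM) in the Gli1+ libraries. One library of each group was at 0 and the rest overlapped. The means were 11.6 ± 10.7 (SD, n = 3) and 14.5 ± 13.7 CPM (SD, n = 4), with a log2 fold change of 0.32 (SE 2.63) that was -0.26 without Gli1- replicate 2 and -0.31 without Gli1+ replicate 2. Sirt7 overlaps Mafg by 124 exonic bases on the same strand, which reads cannot tell apart. Gli1+ replicate 3, with no read of Sirt7, had 234 reads of Mafg.

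Sirt2, the cytosolic deacetylase of tubulin and of mitotic regulators, lies at chr7:28766735-28788661, plus strand (ENSMUSG00000015149). Its counts were 2909, 1554 and 2120 reads (157, 107 and 135 CPM) in the Gli1- libraries and 1133, 2795, 1780 and 2116 reads (105, 204, 162 and 213 CPM) in the Gli1+ libraries. Of the 4 Gli1+ libraries 3 exceeded every Gli1- library and Gli1+ replicate 1 fell below all of them, so the ranges overlapped. Gli1- MuSCs averaged 133 ± 25.3 CPM (SD, n = 3) and Gli1+ MuSCs 171 ± 49.3 CPM (SD, n = 4). This gave a log2 fold change of 0.36 (SE 0.36), and over 14 other settings it stayed between 0.21 and 0.54, the narrowest range of the 7 genes. It was close to the median of all genes tested, 0.30, and Sirt2 ranked at the 90.4th percentile of those genes by CPM per kb. With 1133 reads or more, counting error was at most 2.97% of a value, against a coefficient of variation of 27.7% over the libraries.

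Of the mitochondrial members, Sirt3 is the main deacetylase of the organelle. It lies at chr7:140863666-140882309, minus strand (ENSMUSG00000025486). Gli1- replicates 1, 2 and 3 had 392, 0 and 0 reads (21.2, 0 and 0 CPM) and Gli1+ replicates 1 to 4 had 154, 156, 0 and 35 reads (14.3, 11.4, 0 and 3.53 CPM). The highest value was in the Gli1- group, 3 of 4 Gli1+ libraries had reads, and the groups overlapped. The means were 7.07 ± 12.2 (SD, n = 3) and 7.29 ± 6.65 CPM (SD, n = 4), a log2 fold change of 0.04 (SE 3.16), which became 9.55 without Gli1- replicate 1, since no Gli1- read then remained. Without Gli1- replicate 2, and likewise without Gli1- replicate 3, it was -0.54. The sign was opposite in 5 of 14 other settings. Sirt3 shares 418 exonic bases with Ric8a and 342 with Psmd13, both on the opposite strand, and the use of strand in counting is not stated. Psmd13 had 783 reads in Gli1- replicate 2 and Ric8a 766 in Gli1+ replicate 3, both libraries without a read of Sirt3.

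Sirt4, which acts on several acyl groups and on glutamate metabolism, lies at chr5:115478010-115484725, minus strand (ENSMUSG00000029524). It had 301, 0 and 192 reads (16.3, 0 and 12.2 CPM) in the Gli1- libraries and 257, 19, 0 and 0 reads (23.8, 1.38, 0 and 0 CPM) in the Gli1+ libraries. Nearly all Gli1+ reads thus came from replicate 1, and the ranges overlapped. Sirt4 was the single member with a log2 fold change below 0, at -0.59 (SE 3.13), from means of 9.50 ± 8.47 (SD, n = 3) and 6.30 ± 11.7 CPM (SD, n = 4). The value was -4.33 without Gli1+ replicate 1 and 0.09 without Gli1- replicate 1, so its sign rested on a single library.

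Sirt5, which removes succinyl, malonyl and glutaryl groups, lies at chr13:43365496-43395203, plus strand (ENSMUSG00000054021). Its counts were 196, 0 and 0 reads (10.6, 0 and 0 CPM) in the Gli1- libraries and 130, 191, 0 and 151 reads (12.04, 13.9, 0 and 15.2 CPM) in the Gli1+ libraries. The 3 Gli1+ libraries with reads all exceeded Gli1- replicate 1, and Gli1+ replicate 3 was at 0 like Gli1- replicates 2 and 3. The means were 3.53 ± 6.12 (SD, n = 3) and 10.3 ± 6.98 CPM (SD, n = 4), with a log2 fold change of 1.54 (SE 3.25) that became 10.03 without Gli1- replicate 1, the one Gli1- library with reads. Of the stretches of 31 bases in Sirt5 transcripts 16.4% also occur in other genes, so part of its count is uncertain.

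**Figure D3:**
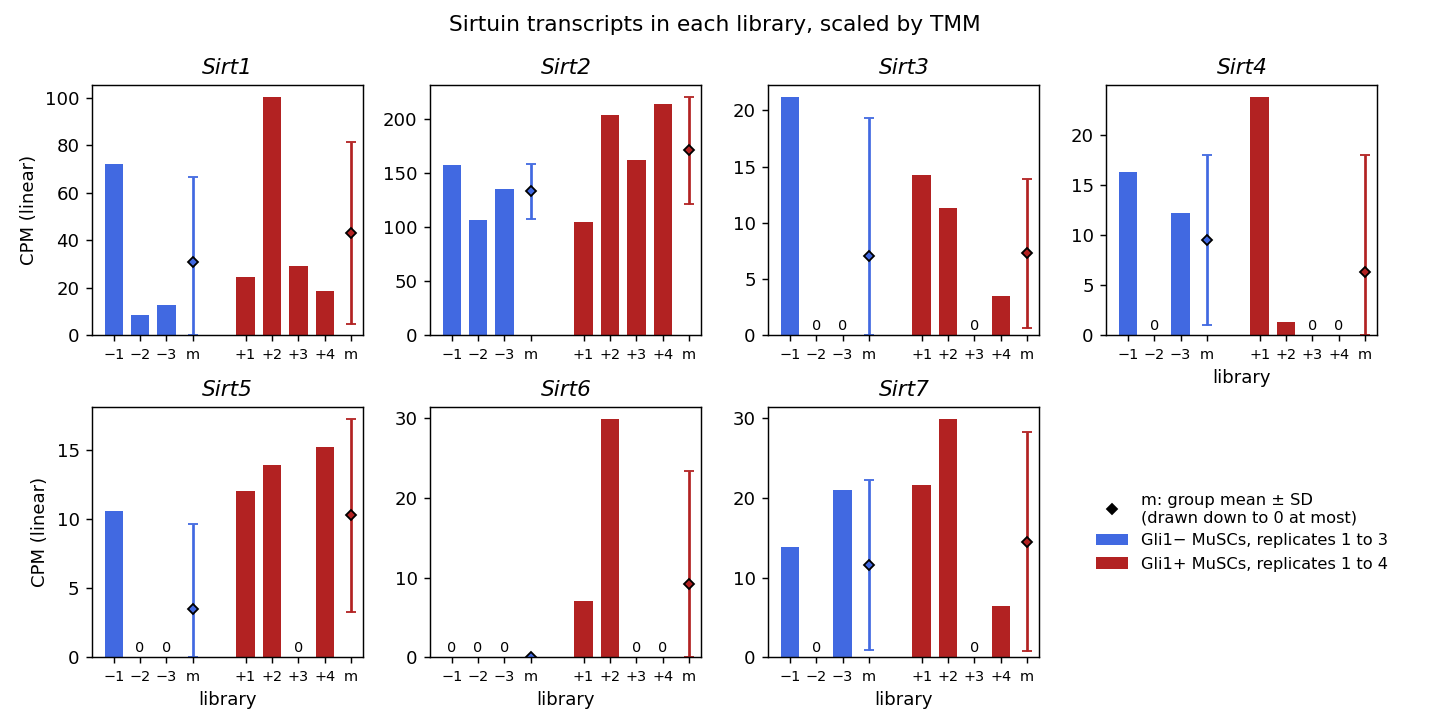
CPM of each sirtuin in each library (linear axes from 0, 1 panel per gene; blue Gli1- replicates 1 to 3, red Gli1+ replicates 1 to 4; diamonds, group means ± SD). In every panel the Gli1+ and Gli1- ranges overlap, and Sirt6 has bars in Gli1+ replicates 1 and 2 only.

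Fitted log2 fold changes were positive for 6 of the 7 sirtuins and negative for 1, beside 65.3% and 34.7% of the genes tested, and their median was 0.36 against 0.30. None of the 7 had groups that did not overlap, against 3.81% of all genes, and 0 of 7 were called by edgeR's quasi-likelihood test at an adjusted p under 0.05, where the background was 0 (0% of 11134 genes, and at an unadjusted p under 0.05, 0 of 7 sirtuins beside 1.53% of genes, 170 in number, that were higher and 0.611%, or 68, that were lower). DESeq2, run as an alternative, called 64 genes higher (0.628% of 10191) and 2 lower (0.0196%), and 1 of the 6 sirtuins it gave a p, Sirt6, was among the higher, while Sirt5 got none. As the members were proposed with this contrast in view, these counts describe them and nothing is read from them. In bulk RNA, fewer cells with a transcript and less of it per cell cannot be told apart.

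**Figure D4:**
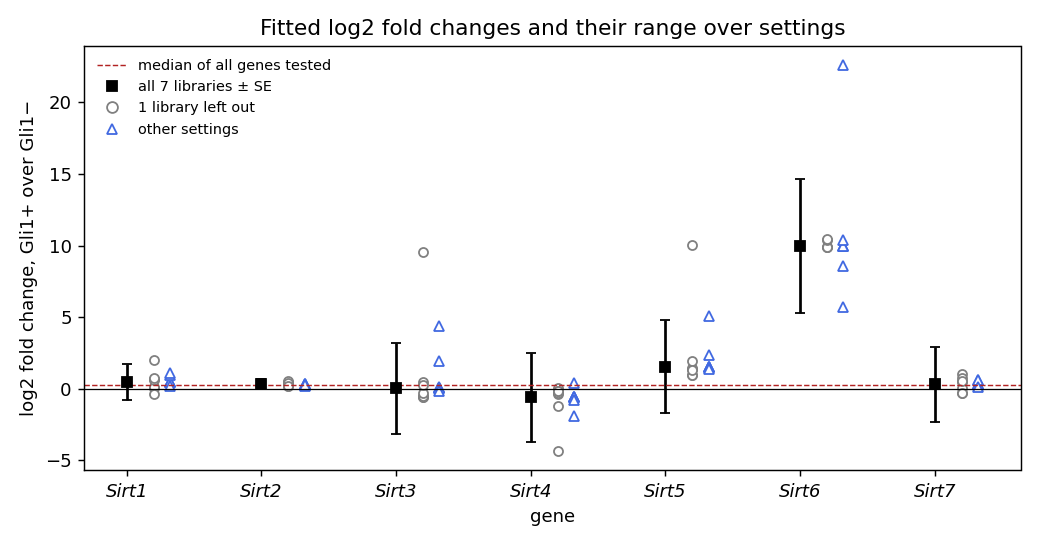
Fitted log2 fold change of each sirtuin, Gli1+ over Gli1- (squares, all 7 libraries ± SE derived from the F statistic; grey circles, 1 library left out; triangles, other settings; dashed line, median of all genes tested). Sirt2 kept to 0.21 to 0.54, whereas leaving out Gli1- replicate 1 carried Sirt3 and Sirt5 to 9.55 and 10.03.

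Likeness between patterns was measured as Pearson's r of log2(CPM + 1) over the 7 libraries, as a description. Within the family Sirt3 and Sirt5, which were read in the same 4 libraries (as were 4.13% of tested genes), were most alike, with an r of 0.914. Sirt2 was followed most closely by Sgk1 (r = 0.963) and Reep5 (r = 0.954), and Sirt1 by Zfp719 (r = 0.973) and Gphn (r = 0.961). Zfp719 and Gphn had no read in Gli1- replicates 2 and 3, where Sirt1 had 124 and 199 reads. For Sirt3 to Sirt7 the shared zeros set much of the value. Sirt6 was matched by Bard1 and Mycl (both r = 1.00), which also had reads in Gli1+ replicates 1 and 2 alone. For Sirt3 the genes most alike were Trim32 and BC034090, and for Sirt5 Traf3ip1 and Capn1, with r of 0.997 to 1.00. Sirt4 was followed by Spata13 and Dclre1c (r = 0.979 and 0.976) and Sirt7 by Fam173b and Zscan12 (both r = 0.995).

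Genes that surround the sirtuins were taken as 7 lists, from NAD+ supply to substrates. In no list was a gene called by edgeR's quasi-likelihood test (lowest adjusted p = 1.00 with Benjamini-Hochberg adjustment over all genes). Over all lists 1 gene, Cdc20 of the 34 nuclear and cytosolic substrates, had an unadjusted p under 0.05 in that test. Of all genes tested, 1.53% were higher and 0.611% lower at that level. Of the list of NAD+ synthesis and salvage, 7 of 11 genes tested lay above 0 and 4 below, with a median log2 fold change of 0.15. This list also holds genes that do not make NAD+, among them Nadk, Nadk2, Nnt, Nnmt and Slc25a51. Nampt, the rate-limiting enzyme of NAD+ salvage, was level, at 74.3 ± 21.2 CPM (SD, n = 3) in Gli1- and 73.7 ± 22.3 CPM (SD, n = 4) in Gli1+ MuSCs. It is named beside the rule for its role. Nmnat1, the nuclear enzyme that makes NAD+ from its mononucleotide, was absent from all 3 Gli1- libraries and had 72, 0, 104 and 0 reads in the Gli1+ libraries, at least 21.6-fold higher by the same limit on the strength of 2 libraries.

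Other consumers of NAD+ lay above 0 for 12 of 15 genes, beside 65.3% of all genes tested, with the highest median of the 7 lists (0.63). That median was the value of a single gene with an SE of 2.97, and only 4 of the 15 were read in all libraries. Tnks2, a tankyrase, had a mean of 61.2 ± 42.7 CPM (SD, n = 3) against 108 ± 40.5 CPM (SD, n = 4). The fit put it at 0.82 (SE 0.58) on the log2 scale. The zinc-dependent histone deacetylases, which do not need NAD+, had 7 of 10 genes above 0 and a median of 0.17. Hdac6, the tubulin deacetylase that shares a substrate with Sirt2 and belongs to the same panel of proliferation genes, had 953, 0 and 2 reads in the Gli1- libraries and 102, 148, 163 and 0 in the Gli1+ libraries. Its high value thus lay in Gli1- replicate 1.

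Regulators and partners of the sirtuins were the list with the largest share below 0, 7 of 11 genes, and a median of -0.09. Senp1, which removes SUMO from proteins including Sirt1, was the one whose groups did not overlap, with 872, 438 and 465 reads in the Gli1- libraries against 165, 394, 0 and 0 (35.6 ± 10.02 and 10.99 ± 13.8 CPM, SD, n = 3 and 4). Of 34 nuclear and cytosolic substrates 21 lay above 0 (median 0.12). Stat3, a target of Sirt1, was lower in every Gli1+ library, at 161 ± 26.1 CPM (SD, n = 4) against 237 ± 35.4 CPM (SD, n = 3), a log2 fold change of -0.56 (SE 0.30), and Nr1h3 was higher in every one, at 11.7 ± 4.85 against 1.24 ± 2.16 CPM. Groups did not overlap in 2.87% (higher) and 0.934% (lower) of all genes tested, beside 1 and 1 of these 34.

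Cdc20 and Bub1b, mitotic checkpoint proteins and substrates of Sirt2, had few or no Gli1- reads. Cdc20 had 63, 92, 0 and 93 reads in the Gli1+ libraries and none in the Gli1- libraries, at least 29.4-fold higher by the limit of 3 reads. Absence from the whole Gli1- group, as for Cdc20, Nmnat1 and Sirt6, held for 3.83% of the genes tested. Bub1b had 24, 0 and 0 reads in the Gli1- and 242, 404, 0 and 70 in the Gli1+ libraries. Neither passed the test, and both were absent from Gli1+ replicate 3, like Sirt3 to Sirt7.

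The mitochondrial substrates, a list that also holds the cytosolic enzyme Pkm, lay above 0 for 20 of 24 genes (median 0.39). The glycolytic Hif1a targets that Sirt6 represses lay above 0 for 7 of 11 (median 0.41). Of all genes tested 65.3% lay above 0, with a median of 0.30. No gene of either list was called. Sdha, a subunit of respiratory complex II and substrate of Sirt3, had 187 ± 48.7 CPM (SD, n = 3) against 248 ± 57.1 CPM (SD, n = 4). Ldha, the lactate dehydrogenase subunit among the Sirt6 targets, had 170 ± 74.0 against 228 ± 104 CPM. Gli1+ replicates 1 and 2, which had reads of Sirt6, stood at 199.7 and 133 CPM of Ldha. Of the libraries without Sirt6, Gli1+ replicates 3 and 4 stood at 201 and 376 CPM and Gli1- replicates 1, 2 and 3 at 213, 84.1 and 212 CPM, so the ranges with and without Sirt6 overlapped. All list medians were the same with genes at 0 in a whole group set to their bound. Only Nmnat1 and Cdc20 were such genes, and both stayed above their list median at the bound. The medians could therefore not change, and this is no test of them.

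**Figure D5:**
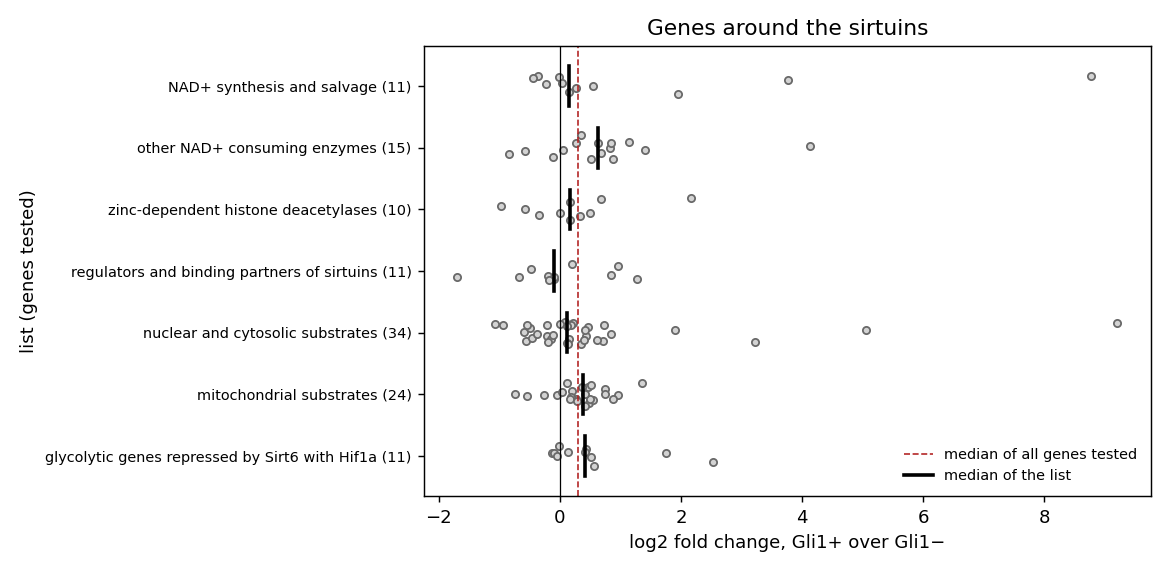
Fitted log2 fold change, Gli1+ over Gli1-, of every tested gene of 7 lists around the sirtuins (points; thick line, median of the list; dashed line, median of all genes tested, 0.30; values of genes at 0 in a group depend on the prior count). List medians lie between -0.09 and 0.63 and no gene was called.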

How the data were processed

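RNA-seq was analysed for 4 libraries of Gli1+ and 3 of Gli1- MuSCs, grouped by their labels. The authors deposited raw counts per gene. Per the study's methods, reads were mapped with STAR to GRCm38 and loaded with tximport, whereas CASAVA and HISAT2 2.0.5 stand in the notes of the submitters, and which of these made the counts is not known. No source says if strand was used in counting. The 14 columns of normalized values per sample and the authors' own fold changes and p-values were not used.

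Counts were fitted in R 4.3.3 with edgeR 4.0.16 (quasi-likelihood, robust, two-sided, TMM, at least 5 reads in at least 2 libraries, Benjamini-Hochberg over 11134 genes, called at 0.05). The biological coefficient of variation was 1.76. The SE of a log2 fold change was not estimated directly. It was the size of the fitted value divided by the square root of the quasi-likelihood F statistic, so it is approximate. CPM used TMM-scaled totals and was divided by the union of exons in a GENCODE annotation of GRCm38, which also gave coordinates. Floors were 3 reads per library, and intervals and floors cover counting error only. p-values measure the spread between the labelled samples.

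The members and lists were chosen with earlier results of these data known. Genes open to naming were the sirtuins, in each list the 4 genes of smallest p and those with no read in a group, and the 2 genes most like each sirtuin. Of those from the lists only a part, not picked by a rule, is described in the text. Hdac6, Nampt and Nr1h3 were added after their values were seen. Cell type markers stood in 7 lists. The alternatives were other scalings, no filter, DESeq2 1.42.0, limma-voom (limma 3.58.1) with quality weights, the replicate block and each library left out. The fit without both Gli1- replicate 2 and Gli1+ replicate 3 was chosen after seeing the data. Promoter windows came from RefSeq tables of GRCm38.p6.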

Additional observations from a re-analysis of the deposited data

Results flagged for a closer look

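Of 37 sirtuins and related genes examined, 3 had 1 Gli1+ library whose gap to the others exceeded Dixon's 95% critical value for 4 samples. That value assumes a normal distribution, so no rate by chance is given for these CPM with many zeros. A gene read in 1 Gli1+ library alone, like Hdac8, exceeds it in any case. The 37 were only a part of the list genes, and list genes outside them were also read in 1 Gli1+ library alone. The number 3 therefore does not hold for the lists as a whole. Sirt1 reached 100.5 CPM in Gli1+ replicate 2, where the next Gli1+ library had 29.3 CPM. Sirt4 reached 23.8 CPM in Gli1+ replicate 1, where the next had 1.38 CPM. Hdac8, a class I histone deacetylase, had 15.3 CPM in Gli1+ replicate 3 and no read in the other Gli1+ libraries.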

How the results depend on the processing

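Genes called higher in Gli1+ MuSCs numbered 0 with all libraries, 64 with DESeq2, and 0 to 2 with each library left out in turn (2 without Gli1- replicate 1, 1 without Gli1- replicate 2). Genes called lower numbered 0, and 2 with DESeq2. No member of the 7 lists was called in any setting run, nor was a gene called with Gli1- replicate 2 and Gli1+ replicate 3 both left out, where Sirt1 was at 0.18 and Sirt2 at 0.25 on the log2 scale. Without a filter, with other scalings and with limma-voom 0 genes were called.

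Whether the replicate numbers pair the libraries is not known. The correlation of deviations between libraries of the same number was 0.24, -0.11 and 0.07, and between libraries of different numbers -0.24 to 0.17. Deviations from means of 3 and 4 libraries cannot settle the pairing. With the number as a block 0 genes were called, with log2 fold changes of 1.11 for Sirt1, 0.21 for Sirt2 and 8.57 for Sirt6. Sirt4 changed sign under the block, to 0.43.

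Scaling moved the median of all genes little (0.30 with TMM, 0.27 with DESeq2 size factors, 0.23 with library totals), whereas limma-voom moved it to 0.93. limma-voom gave 4.37 for Sirt3, 5.10 for Sirt5 and 5.75 for Sirt6, and DESeq2 gave 22.6 for Sirt6. The causes were not tested. Sirt6 did not meet the filter without Gli1+ replicate 1 or 2, and no value is given there. Per kb of the longest transcript Sirt2 stood at 73.0 and Sirt5 at 3.05 CPM, and Sirt2 stayed highest. At 19 to 411 reads where read at all, and 0 elsewhere, Sirt3 to Sirt7 were limited by absence from whole libraries, and their folds are not resolved at this spread.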
